A study of Caenorhabditis elegans with 4 samples.

Results

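The sperm protein gene families of Caenorhabditis elegans were followed here in poly(A) RNA of L3 larvae. The members were the protein-coding genes present in both count tables whose symbol is msp-, spe-, ssp- or nspd- followed by a number. This rule gave 82 genes of 46748 in the tables and of 19641 protein-coding genes, namely 31 msp genes, 29 spe genes, 12 ssp genes and 10 nspd genes. The rule used names only and no measured value.

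Whole larvae were grown on NGM plates at 20°C, harvested at L3 and used for RNA-seq in 2 groups of 2 libraries each. The first group was wild type, the Bristol strain N2 (called N2 below), sequenced as rWQS019 and rWQS042. The second was the double mutant met-2(n4256) set-25(n5021), strain GW638, sequenced as rWQS029 and rWQS045. MET-2 and SET-25 are the methyltransferases that place methyl groups on lysine 9 of histone H3, a mark of silent chromatin, and the mutant carries both mutations in all its cells.

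Nematode sperm have no flagellum and crawl by assembling and disassembling filaments of the major sperm protein, MSP, the product of the msp genes. MSP is made in spermatocytes, is stored in paracrystalline fibrous bodies beside membranous organelles, and, when released by sperm, also acts as a signal for oocyte maturation. Hermaphrodites make their sperm in the last larval stage, after L3, before the germline turns to oocytes. The nspd and ssp genes encode small sperm proteins, and the ssp proteins are related to MSP. The spe genes were named after mutants with defective spermatogenesis, so they encode proteins of different kinds that act at successive steps from spermatocyte to fertilization.

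The libraries held from 22849521 to 56879896 counts. A level below 3 counts cannot be told from a count of 0, and this floor lay between 0.0527 and 0.131 CPM (counts per 1000000 of the library total), a limit that covers counting error only. CPM of single genes and of gene lists are TMM-scaled (library totals multiplied by an edgeR scaling factor), whereas family sums use the totals. met-2 itself was at 58.9 ± 4.33 CPM in N2 and 33.5 ± 2.52 CPM in the mutant, whereas set-25 was at 14.5 ± 4.32 and 11.6 ± 0.0541 CPM (SD, n = 2 libraries). Neither gene was at 0 in the libraries labelled mutant, and which part of each gene is deleted is not given in the sources used here, so whole-gene counts do not check the labels. Adult genes were checked too: col-19, an adult cuticle collagen, had 1 to 7 counts in a library and vit-2, a yolk protein gene, had 1 to 4. These were among the lowest, as vit-6, also a yolk protein gene, had 6 to 30 counts. A list of 15 germline genes, all of them counted in every library, summed to 623 and 661 CPM in the N2 libraries but to 1766 and 3450 CPM in rWQS029 and rWQS045. The sum leaned on its highest genes, such as glh-1, at 204 and 208 CPM in N2 and 482 and 1170 CPM in the mutant. In DESeq2 9 of the 15 were higher at an adjusted p under 0.05, against 2.49% of all genes, and 6 did not pass. Among those 6, mes-2 was at 24.7 and 23.1 CPM in N2 and 24.7 and 34.4 CPM in the mutant. A list of 11 larval and cuticle genes summed to 2289 and 3243 CPM in N2 and to 1126 and 6550 CPM in rWQS029 and rWQS045, so the mutant libraries lay on both sides of N2. In that list the cuticle gene bli-2 was at 1.3 and 1.03 CPM in N2 and at 3.57 and 18.3 CPM in rWQS029 and rWQS045. DESeq2 called it higher (adjusted p 0.00276) and did not call the other 9 genes to which it gave an adjusted p.

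The members fell into 3 classes. Silent genes, with 0 counts in all 4 libraries, numbered 16, or 19.5% of the members against 4.1% of all protein-coding genes. Another 28 members (34.1%, against 12.1%) had reads but never more than 3 in a library. The remaining 38 (46.3%, against 83.8%) exceeded 3 counts in at least 1 library and are called counted. Only 13 members, 12 of them spe genes, reached 10 counts in all 4 libraries, which 67% of protein-coding genes did. Most members were thus at or near 0 in L3, and the families differed in how many were. The classes use raw counts and were not corrected for gene length. Exon lengths were 234 to 384 bases for msp, 213 to 222 for nspd and 324 to 451 for ssp, but 343 to 3889 for spe. The part of length in the classes was not tested.

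The split ran along the families. Of the 53 msp, nspd and ssp genes, 16 were silent, 24 stayed at or under 3 counts and 13 were counted. Of the 29 spe genes, 0 were silent, 4 stayed at or under 3 counts and 25 were counted. The silent genes were msp-10, msp-19, msp-51, msp-53, msp-58, msp-65, msp-74, msp-78, msp-79 and msp-113, nspd-6 and nspd-8, ssp-36 and ssp-37, and both genes that carry the symbol ssp-9 (WBGene00006038 and WBGene00006040).

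The msp genes share a near-identical gene structure. In the annotation 28 of 31 code for 127 residues in 1 coding exon without introns, msp-32 is slightly shorter, and msp-58 and msp-74, both silent, code for 77. The nspd proteins are 70 to 73 residues long and the ssp proteins 107 to 112, again with lengths shared between members, whereas the 29 spe proteins, from 66 to 1219 residues, all differ in length. Sequence identity between the copies was not computed. How the authors' counting treated reads that match several copies is not given either. For the msp, nspd and ssp genes a 0 therefore means that no read was assigned to that copy, and reads of a family may be split between copies or left out.

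The copies also lie together. All 31 msp genes were on chromosomes II (13 genes) and IV (18 genes), in 7 groups of neighbours no more than 100 kb apart. The copies on chromosome II had 15, 13, 20 and 71 counts and those on IV had 3, 4, 0 and 17, in the order rWQS019, rWQS042, rWQS029 and rWQS045. On chromosome II 1 copy was silent and on IV 9 were. No member of any family was on the X chromosome, which holds 13.6% of the protein-coding genes.

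Summed over its 31 genes, the msp family had 18 counts in rWQS019 and 17 in rWQS042, the N2 libraries, and 20 in rWQS029 and 88 in rWQS045, the double mutant libraries. In CPM of the library total these sums were 0.788 (exact 95% binomial interval 0.467 to 1.25), 0.299 (0.174 to 0.479), 0.547 (0.334 to 0.844) and 1.81 (1.45 to 2.23), in the same order. Only rWQS045 stood above the others, and the mutant library rWQS029 lay between the N2 libraries. With TMM scaling the ratio of mutant to N2 means was 2.29, that is 1.20 on the log2 scale with an SD within groups of 1.20. It was 0.59 on that scale without msp-50 and -0.09 without rWQS045. The summed msp level thus did not separate the genotypes beyond the spread between libraries. These intervals cover counting error only, and in RNA of whole larvae fewer cells of a type and less RNA per cell cannot be told apart.

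**Figure D1:**
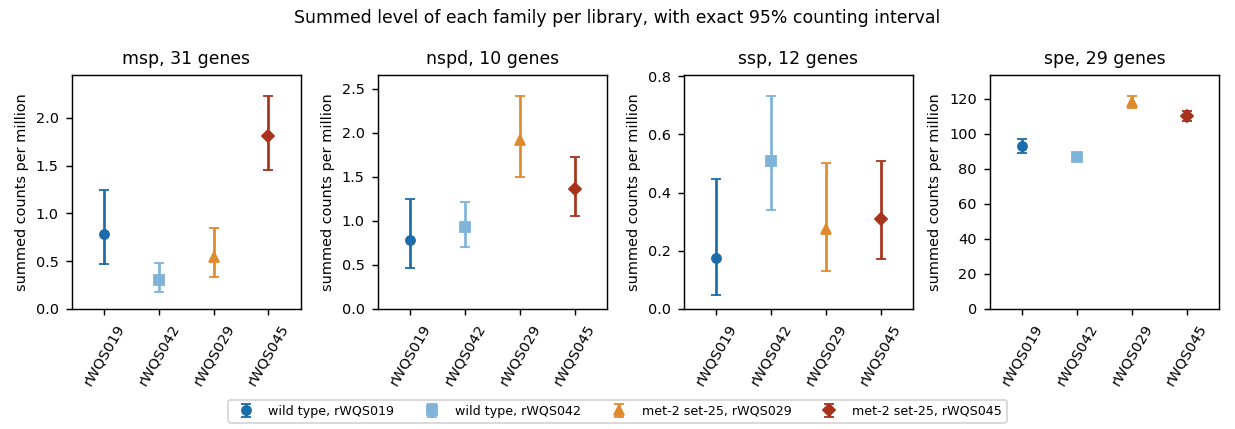
Summed level of each family in each library, in CPM of the library total, with exact 95% binomial intervals as bars and 1 panel with its own axis per family. The msp sum of 1.81 in rWQS045 lies above the other libraries, the ssp sums overlap, and the spe sums lie between 86.8 and 118.

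Reads on msp genes were also spread over more copies in rWQS045. There 19 msp genes had at least 1 read, against 7, 7 and 8 in rWQS019, rWQS042 and rWQS029. Thinned to the depth of the smallest library the expected numbers were 14.3 in rWQS045, 7 in rWQS019, 4.02 in rWQS042 and 6.34 in rWQS029. Of 12 members with reads in rWQS045 alone, 8 were msp genes. The germline list was also highest in that library, at 3450 CPM, and its part in the msp reads was not tested. A list of 8 oocyte and yolk genes, with 0 of them silent, summed to 27.2 and 32.0 CPM in N2 and to 73.9 and 131 CPM in the mutant libraries. Much of that rise came from cbd-1, at 7.78 and 14.0 CPM in N2 and 50.6 and 84.9 CPM in rWQS029 and rWQS045. Of the 7 genes tested, 4 were higher in the mutant without overlap, against 22.1% of all tested genes, whereas rme-2, puf-5 and egg-1 overlapped. DESeq2 called 1 of the 7 higher at an adjusted p under 0.05, against 2.49% of all genes. It did not call the other 6.

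The most counted copy was msp-50 (chromosome II, 5199797 to 5200180 in WBcel235, plus strand). It had 2 and 1 counts in N2, 7 in rWQS029 and 37 in rWQS045, and so made up 42% of the msp counts in the last library. The groups did not overlap, and the pooled ratio of the mutant to the N2 level was 13.7 (exact 95% interval 4.40 to 69.1, counting error only). The ratio rested on few N2 reads and on rWQS045, as it was 5.09 without rWQS045, 5.90 without rWQS042 and 29.4 without rWQS019. The gene did not pass the count filter of the main test. DESeq2 gave a log2 fold change of 3.49 ± 1.52 (SE) with an adjusted p of 0.293 (1.84 without rWQS045, at an unadjusted DESeq2 p of 0.545), and edgeR without the filter an adjusted p of 0.00837. In the latter setting 2.89% of 28153 genes were called higher and 1.46% lower.

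The other msp genes were close to the floor. msp-31 had 8 and 8 counts in N2 and 3 and 5 in the mutant, and was the only msp gene above 3 counts in an N2 library. It lies inside an intron of aagr-2 on the same strand, a gene with 7150 to 13220 counts, and whether reads of that gene fell on msp-31 was not tested. msp-49, the next msp copy beside msp-50, had 1 and 2 counts in N2 and 3 and 7 in the mutant. msp-33, inside an intron of gst-9 on the opposite strand, had 3, 1, 3 and 3 counts in the order rWQS019, rWQS042, rWQS029 and rWQS045. msp-3 had 0 and 0 counts in N2 and 1 and 4 in the mutant. None of these genes was tested by edgeR, and none of the 31 passed its filter.

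**Figure D2:**
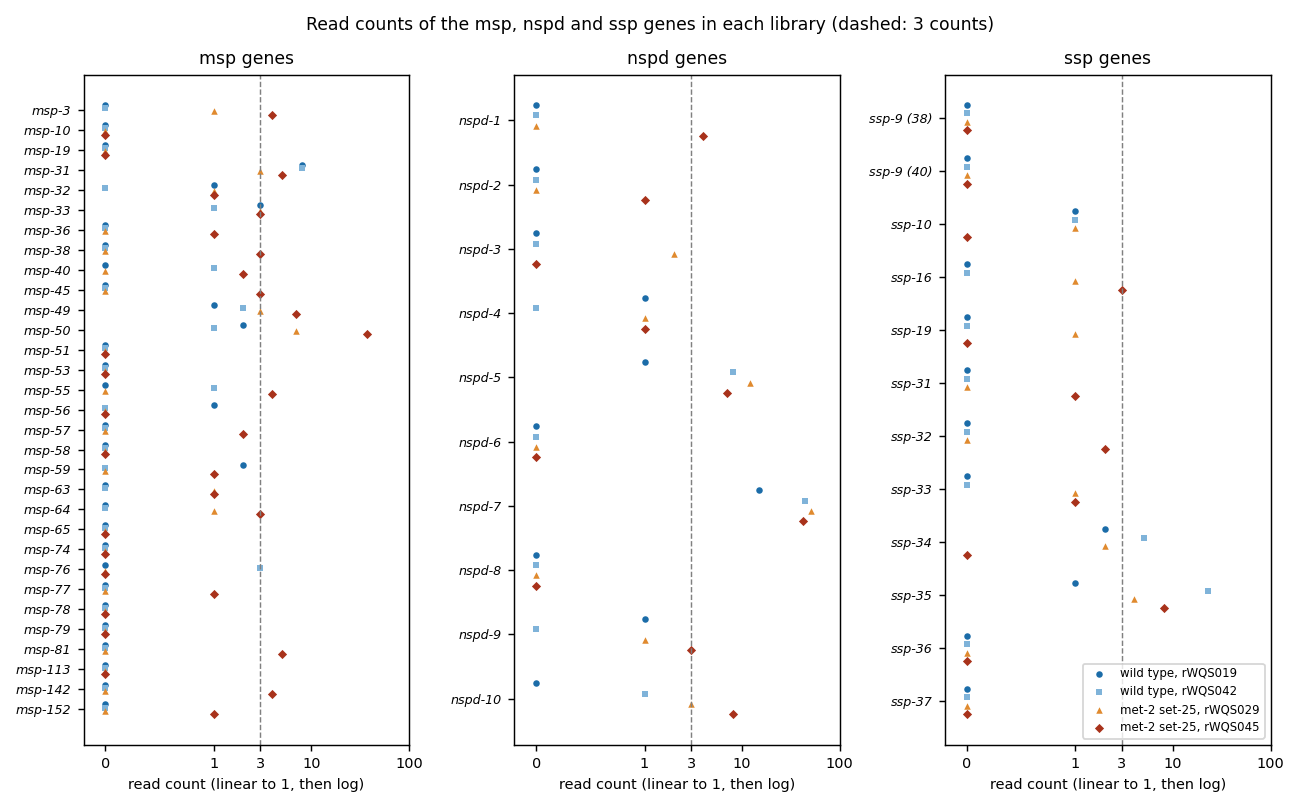
Read counts of every msp, nspd and ssp gene in each of the 4 libraries, on an axis that is linear from 0 to 1 and logarithmic above, with a dashed line at 3 counts and the points of a gene set apart vertically (the 2 genes named ssp-9 carry the last digits of their identifiers). Most genes sit at 0 to 3 counts, msp-50 reaches 37 in rWQS045, and nspd-7 is the only gene above 3 counts in all libraries.

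Among the nspd genes a single copy carried most reads. nspd-7 (chromosome IV, 10268975 to 10269187, minus strand) had 15 and 44 counts in N2 and 51 and 42 in the mutant, that is 0.652, 0.771, 1.29 and 0.941 CPM, and held 73.4% of the counts of its family. The mutant libraries were higher without overlap, but the difference did not pass the test, at a log2 fold change of 0.64 ± 0.44 (SE) and an edgeR adjusted p of 0.67. Its nearest gene, Y43C5A.2, 695 bases away, had 3575 to 9471 counts. nspd-5 had 1 and 8 counts in N2 and 12 and 7 in the mutant, that is 0.0435, 0.14, 0.304 and 0.157 CPM, with the lower mutant library just above the higher N2 library. nspd-10 had 0 and 1 counts in N2 against 3 and 8 in the mutant. nspd-4 and nspd-9 did not exceed 3 counts in any library. The nspd sums were 0.788 and 0.932 CPM of the library total in N2 and 1.91 and 1.36 in the mutant, and this family sum is given without a test.

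The ssp family had few reads. Its 12 genes together had 4 and 29 counts in N2 and 10 and 15 in the mutant, and these groups overlapped. The TMM-scaled ratio of mutant to N2 means was 0.865, or -0.21 on the log2 scale, and turned to 0.761 on that scale when rWQS042 was left out and to 0.391 without ssp-35. ssp-35 had 1 and 23 counts in N2 and 4 and 8 in the mutant. It lies 131 bases from tbb-6, a tubulin gene on the opposite strand with 53, 1119, 187 and 303 counts in the order rWQS019, rWQS042, rWQS029 and rWQS045, so both genes were highest in rWQS042. The library kit did not mark strand, and the part of tbb-6 in these reads was not tested. ssp-34 had 2 and 5 counts in N2 and 2 and 0 in the mutant, next to grl-21 at a distance of 87 bases, which had 2048, 4201, 6592 and 315. ssp-10, ssp-16 and ssp-33 stayed at or under 3 counts.

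The spe genes carried nearly all reads of the members. Their sums were 2119 and 4936 counts in N2 and 4319 and 5350 in the mutant, or 92.7, 86.8, 118 and 110 CPM of the library total. After TMM scaling the mutant sums were 109.5 in rWQS029 and 119.9 in rWQS045, so the order of the mutant libraries depended on the scaling. The mutant to N2 ratio of TMM-scaled means was 1.28, which is 0.36 on the log2 scale with an SD within groups of 0.08. The genes spe-15, spe-39 and spe-48 held 80.1% of these counts. Without these 3 the sums were 18.69 and 16.02 CPM in N2 and 25.18 and 22.12 in the mutant, so both mutant libraries stayed above both N2 libraries. The germline list was higher in the same libraries, and its part in the spe sums was not tested.

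Per kb of exon, spe-48 was the highest at 20.2 CPM per kb and spe-39 followed at 16.8. spe-48 was ahead in rWQS019, rWQS042 and rWQS029 and spe-39 in rWQS045, so their order did not hold across libraries. spe-15 came next in the mean, at 3.28 and 4.26 CPM per kb in N2 and 7.42 and 9.04 in the mutant. spe-29 at 5.18, spe-5 at 2.45, spe-6 at 1.64, spe-4 at 1.59 and spe-44 at 1.48 CPM per kb followed, as means of the 4 libraries. nspd-7, at 4.29 CPM per kb, was the only gene of the small families within this range.

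**Figure D3:**
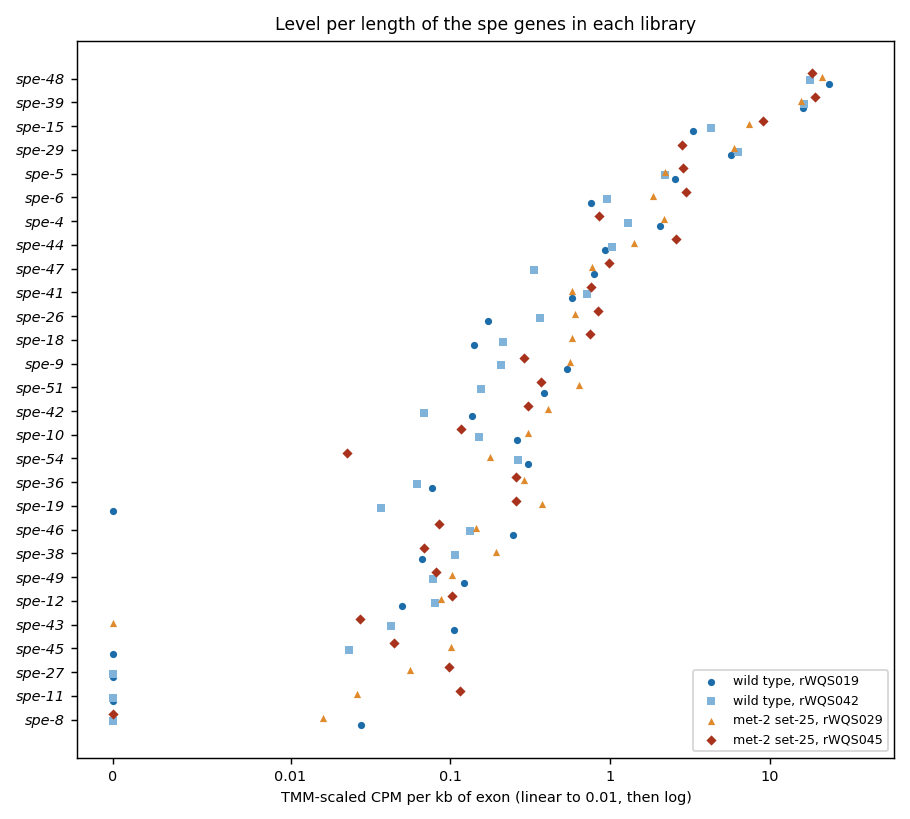
Level of the spe genes in each library, as TMM-scaled CPM per kb of exon on an axis that is linear to 0.01 and logarithmic above, ordered by the mean. Levels run from 20.2 CPM per kb for spe-48 down to genes with 0 counts in 1 or more libraries, such as spe-8 and spe-27.

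The spe genes are taken in the order in which they act, beginning with spermatocytes. Of 9 spe genes for MSP packing, organelles and the division of spermatocytes, 8 were counted. spe-39, which encodes a partner of VPS33B in vesicle traffic that is also used in somatic cells, was at 31.2 and 31.6 CPM in N2 and 30.4 and 37.2 CPM in the mutant. Its groups overlapped, with an edgeR adjusted p of 0.899 for a log2 fold change of 0.11 ± 0.23 (SE). spe-15, a myosin VI that sorts components during the division that yields spermatids, was at 12.7 and 16.6 CPM in N2 and at 28.8 and 35.2 CPM in the mutant. Both mutant libraries were higher, by 1.13 ± 0.28 (SE) on the log2 scale, at an unadjusted p of 0.0101 but an adjusted p of 0.295 in edgeR and of 0.0857 in DESeq2.

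spe-6, a casein kinase I-like protein required for MSP assembly, was at 0.956 and 1.21 CPM in N2 and 2.36 and 3.79 CPM in the mutant. Its log2 fold change was 1.49 ± 0.44 (SE), with an edgeR adjusted p of 0.391. spe-18, also required for fibrous bodies, had 4 and 15 counts in N2 and 28 and 41 in the mutant, with a log2 fold change of 1.84 ± 0.51 and an adjusted p of 0.351 in edgeR. In both genes the groups did not overlap. spe-26, a kelch-like protein of spermatocytes, was at 0.304 and 0.648 CPM in N2 and at 1.06 and 1.48 CPM in the mutant, also without overlap, and its edgeR adjusted p was 0.514. It lies within R10H10.3 on the opposite strand, with no exon bases shared, a gene with 1847 to 6643 counts. spe-4 and spe-5 overlapped between the genotypes. spe-5, a subunit of the vacuolar proton pump, was at 4.26 and 3.68 CPM in N2 and 3.65 and 4.77 CPM in the mutant. spe-4, the sperm presenilin, was at 3.26 and 2.05 CPM in N2 and at 3.45 and 1.34 CPM in the mutant.

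Genes of sperm activation, the step in which round spermatids become motile, summed to 3.39 and 2.85 CPM in N2 and to 3.62 and 2.69 CPM in rWQS029 and rWQS045. The spermatocyte genes summed to 53.2, 56.1, 70.8 and 84.9 CPM in the same order, much of it from spe-39 and spe-15. Genes of the sperm surface, at 4.04, 3.15, 5.63 and 4.62 CPM, were close to the activation genes. Of the 8 activation genes, 5 were counted and spe-8, spe-27 and spe-43, which act in a shared signalling pathway that begins with the tyrosine kinase SPE-8, stayed at or under 3 counts. spe-29, a small membrane protein of that pathway, had 45 and 123 counts in N2 and 80 and 43 in the mutant. A share of 34.1% of its exon bases is also exon of gon-1 on the opposite strand, a gene with 4377 to 11377 counts, so the level of spe-29 is uncertain. spe-19, of the same pathway, had 0 and 2 counts in N2 and 14 and 11 in the mutant, a pooled ratio of 11.7 (exact 95% interval 2.92 to 102, counting error only). It did not pass the filter of the main test. DESeq2 gave it an adjusted p of 0.37 and edgeR without the filter one of 0.0485.

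Genes of the sperm surface were counted at low levels. All 8 exceeded 3 counts in at least 1 library. spe-42, a membrane protein needed when sperm meet the egg, had 8 and 10 counts in N2 and 41 and 35 in the mutant, and at a log2 fold change of 1.86 ± 0.57 (SE) the edgeR adjusted p was 0.399. Its paralog spe-49 had 7 and 11 counts in N2 and 10 and 9 in the mutant. spe-36, a secreted EGF-like protein, had 2 and 4 counts in N2 and 13 and 13 in the mutant, with a log2 fold change of 1.98 ± 0.60 and an adjusted p of 0.391 in edgeR, and 11.4% of its exon bases are shared with F12F6.1 or F40F11.3. spe-41, a TRPC calcium channel, had 36 and 111 counts in N2 and 62 and 92 in the mutant. spe-9, an EGF-repeat membrane protein, had 25 and 24 against 45 and 26. In this group spe-36 and spe-42 separated the genotypes while spe-9, spe-41 and spe-49 overlapped.

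The remaining spe genes were not assigned to these steps. spe-48 had 29.7 and 22.4 CPM in N2 and 26.9 and 23.4 CPM in the mutant. The groups overlapped, and the edgeR adjusted p was 0.962 for a log2 fold change of -0.05 ± 0.27 (SE). spe-44, a regulator of transcription in spermatocytes, was at 1.52 and 1.66 CPM in N2 and 2.28 and 4.21 CPM in the mutant. The groups did not overlap, but the edgeR adjusted p was 0.552. spe-11, a sperm-supplied protein that the embryo needs, had 0 and 0 counts in N2 and 1 and 5 in the mutant. spe-54 had 7 and 15 counts in N2 and 7 and 1 in the mutant.

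Over all members, edgeR tested 20 (19 spe genes and nspd-7) and called 0 at an adjusted p under 0.05, as it called 0.0% of all 15978 genes tested. DESeq2, which gave an adjusted p to 26 members, called 0 of them, against 2.49% of 16562 genes called higher and 0.821% called lower. At an unadjusted edgeR p under 0.05, 5 members were higher in the mutant and 0 lower (spe-6, spe-15, spe-18, spe-36 and spe-42), where 6.2% of all tested genes were higher and 3.87% lower. CPM values of the genotypes did not overlap in 8 tested members that were higher in the mutant and in 1, spe-54, that was lower, against 22.1% and 21.1% of all tested genes. The median log2 fold change of the 20 was 0.44, beside 0.02 over all tested genes. Leaving out rWQS029 gave 1 member called by DESeq2, spe-15 at an adjusted p of 0.0323, where 5.31% of genes were called higher. Leaving out any other library gave 0, with 2.72% of genes called higher without rWQS045. Of the 38 members counted in L3, 30 remained without rWQS045.

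**Figure D4:**
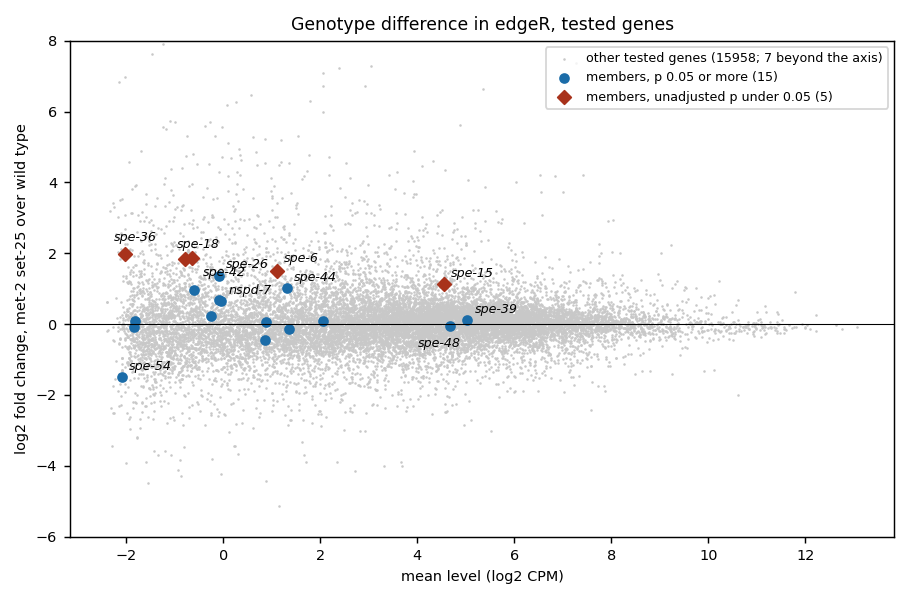
Log2 fold change of met-2 set-25 over N2 against the mean level in log2 CPM for every gene tested by edgeR, with the 20 tested members as large points and those with an unadjusted p under 0.05 as red diamonds. The 5 diamonds lie between 1.13 and 1.98, and 0 members passed the adjusted threshold.

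The regulators upstream of these genes were compared in the same way. A list of 16 regulators of sperm fate and spermatogenesis, all counted, summed to 297.8 and 339.2 CPM in N2 and to 393.8 and 538.9 CPM in the mutant. Of the 15 tested, edgeR called 0, and the median log2 fold change was 0.52. At an unadjusted edgeR p under 0.05, 4 were higher and 0 lower, where 6.2% of all tested genes were higher and 3.87% lower. DESeq2 called 3 higher and 0 lower, against 2.49% and 0.821% of all genes, and the other 12 did not pass. Those 3 were gld-1, an RNA-binding regulator of germ cell fate (adjusted p 0.0105 in DESeq2), cpb-1, an RNA-binding protein required for spermatogenesis (0.0003214), and her-1, the secreted signal of male fate (0.043).

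cpb-1 was at 1.35 and 1.09 CPM in N2, 4.94 CPM in rWQS029 and 22.3 CPM in rWQS045, a log2 fold change of 3.49 ± 0.82 (SE) with an edgeR adjusted p of 0.281. her-1 had 4 and 8 counts in N2 and 47 and 38 in the mutant. fog-1, a driver of sperm fate, was at 10.7 and 14.2 CPM in N2 and 22.0 and 46.3 CPM in the mutant, and its DESeq2 adjusted p was 0.111. fog-3, its partner in that decision, was at 8.30 and 6.85 CPM in N2 and 9.88 and 29.3 CPM in the mutant. In fog-1, fog-3, cpb-1 and gld-1 rWQS045 was the highest library, as it was for the msp sum and the germline list. Some regulators rose little or not at all. Their edgeR log2 fold changes were 0.107 for fem-1, 0.166 for fem-2, -0.0457 for tra-2, -0.336 for elt-1 and -0.366 for alg-3.

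**Figure D5:**
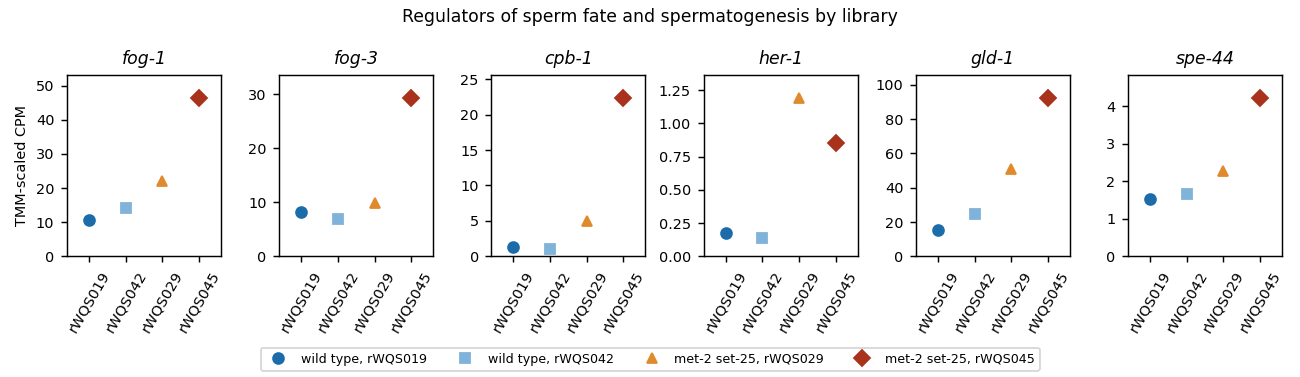
Level in TMM-scaled CPM of fog-1, fog-3, cpb-1, her-1, gld-1 and spe-44 in each library, 1 panel with its own axis from 0 per gene. Both mutant libraries lie above both N2 libraries in each panel, and rWQS045 is the highest in all but her-1. Regulators whose groups overlapped, such as elt-1, are not shown.

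A list of other genes linked to sperm or to male fertility was read beside the families. Of its 28 genes, 22 were found by symbol, of which 6 never exceeded 3 counts and 16 did. They summed to 33.3 and 28.04 CPM in N2 and 39.41 and 49.59 CPM in the mutant, and most of that level came from zipt-7.1, swm-1 and try-5. Of the 9 tested, 0 were called by edgeR or DESeq2, and the median log2 fold change was 0.47. At an unadjusted edgeR p under 0.05, 1 (smz-1) was higher, where 6.2% of all tested genes were. fer-1, a ferlin for fusion of the membranous organelles, had 12 and 14 counts in N2 and 14 and 53 in the mutant, and gsp-4, a sperm phosphatase, had 7 and 7 against 6 and 15.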

How the data were processed

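Poly(A) RNA of whole L3 larvae was sequenced from 4 libraries, 2 per genotype. The deposited files hold the authors' raw counts for each gene, neither normalized nor pooled. Per the methods and notes, TruSeq libraries, which do not mark strand, were aligned with STAR to ce10 and counted on WS235 genes with HTSeq (methods) or featureCounts (notes), with versions not given in the sources used here. Columns left out numbered 0. Libraries are named as in the column names, and nothing states that cultures were separate, so the p-values reflect library-to-library spread, which may be technical.

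Members and lists were chosen with earlier results of these data known. Gene structure and positions came from Ensembl 115 (WBcel235). The main test was edgeR 4.0.16 (R 4.3.3), quasi-likelihood, filterByExpr, TMM, Benjamini-Hochberg over 15978 genes, with DESeq2 1.42.0 as alternative, both tested on simulated data. CPM of single genes and of gene lists are TMM-scaled, and family sums in CPM use library totals, with ratios between genotypes taken after TMM scaling. Genes were named by calls, by an unadjusted edgeR p under 0.05, or as the 5 highest of a family. Silent genes, spe genes given by role, spe-19, spe-44 and others were added after their values were seen. The values of 1 spe gene are not reported here.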

Additional observations from a re-analysis of the deposited data

How the results depend on the processing

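No paired analysis was possible because the count columns carry the genotype but no replicate number. The count of called members was 0 under DESeq2, under upper-quartile or RLE factors, under library sizes alone and under every omission of a library in edgeR, and 2 without the filter on low counts (msp-50 and spe-19). Leaving out libraries in DESeq2, an alternative added after seeing the data, gave 0 to 1. Over all genes, 0 calls became 548 in DESeq2, 1223 without the filter and 0 to 228 without a library (228 without rWQS029, 133 without rWQS045). Members counted in L3 were 38, but 66 with at least 1 count in any library, 13 with at least 10 in every library and 30 to 38 without a library.

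The summed log2 ratio ranged from -0.0917 (without rWQS045) to 2.06 for msp, from 0.79 to 1.06 for nspd, from 0.294 to 0.425 for spe and from -0.785 to 0.761 (without rWQS042) for ssp when a library was left out. Without its most counted gene the ratio went from 1.2 to 0.593 for msp, from 0.927 to 1.82 for nspd, from 0.361 to 0.481 for spe and from -0.21 to 0.391 for ssp, a change of sign. The count ratio of msp-50, recomputed after seeing the data, was 5.09 to 29.4 without a library. Of 90 alternatives of the log2 fold changes of 10 named members, 83 kept their direction. The 7 reversals were in spe-4 (range -0.971 to 0.39 without a library, with 0.219 without rWQS019 and 0.39 without rWQS045), spe-5 (-0.119 to 0.265, with -0.0209 without rWQS042 and -0.119 without rWQS045), spe-39 (-0.0472 to 0.244, the lowest without rWQS045) and spe-48 (-0.241 to 0.163, with 0.163 without rWQS019 and 0.0488 without rWQS045), whose adjusted p in edgeR on all libraries was 0.899 to 0.962. The cause was not tested. Depth limits every statement on the msp, nspd and ssp genes, most of which had 0 to 3 reads.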
